A study of Mus musculus with 24 samples.

Results

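Left ventricular gene expression was compared between phospholamban knockout (PLB KO) mice and nontransgenic (NTG) mice at 4 months of age. The comparison rests on 6 of the 24 microarrays of a study of a cardiomyopathy mouse model, taken by their sample titles: 3 PLB KO arrays and 3 NTG arrays. The study had 8 groups of 3 arrays. PLB KO mice carry no transgene, and their labels name only the phospholamban knockout. NTG mice are the controls without the transgene. Tm180 mice have a transgene for mutant α-tropomyosin, Tm180/PLB KO mice combine it with the knockout, and all 4 genotypes were also sampled at 12 months. Replicate 2 of the 4 month Tm180/PLB KO group has a source name of 12 months against a title, description and age of 4, and was used at 4 months. By their titles, arrays within a group are biological replicates. The labels give neither strain nor sex, and they do not say whether an array holds 1 animal. The genes on the X and Y chromosomes were set aside, and 15440 genes were tested.

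Phospholamban is a small protein in the membrane of the sarcoplasmic reticulum, the calcium store of the heart muscle cell. In its unphosphorylated form it restrains the calcium pump SERCA2, which Atp2a2 encodes, and phosphorylation during β-adrenergic stimulation lifts that restraint. Without phospholamban the pump is no longer held back, and mouse hearts relax and contract more strongly. Natriuretic peptides and other genes of the fetal heart programme are widely used as markers of load on the ventricle, and immediate-early genes are transcribed within minutes of a stimulus.

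Pln, the targeted gene, was examined first. Its log2 level was 7.46, 9.05 and 7.15 on the PLB KO arrays of replicates 1, 2 and 3, and 13.68, 13.79 and 13.79 on the NTG arrays. The groups did not overlap, and the knockout array of replicate 2 lay nearest to the controls. Pln fell by 5.86 ± 0.324 (SE) on the log2 scale, 58.3-fold (limma, adjusted p = 6.7e-10). A log2 difference of 1 is a doubling. All 3 knockout values were above 4.83, the cutoff used for dim signals, and the sources used here do not say whether the probes lie in the deleted sequence. The same comparison gave a log2 difference of -7.57 at 12 months and -6.33 between Tm180/PLB KO and Tm180 mice at 4 months.

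In the fit to the 8 group means 1 gene, Pln, passed an adjusted p of 0.05, which is 0.00648% of the 15440 genes. An unadjusted p under 0.05 was reached by 475 genes, or 3.08%: 234 were higher in PLB KO (1.52%) and 241 were lower (1.56%). That count of 475 was 925 without NTG replicate 1, 275 without NTG replicate 2, 1109 with the replicate block described next and 2358 with array weights. The 3 arrays of one group all lay above those of the other for 1119 genes (7.25%), 575 of them higher in PLB KO (3.72%) and 544 lower (3.52%). At least a 1.5-fold difference was found for 208 genes (1.35%) and at least a 2-fold difference for 69 (0.447%). In this comparison arrays with the same replicate number deviated together from their group means. With the replicate number as a block in the limma fit, 10 genes were called (0.0648%). Pln, Mylk4, Myl1, Lama5 and Abracl were lower, and Nppa, Kctd16, Abcb4, Gramd1b and Clu were higher.

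**Figure D1:**
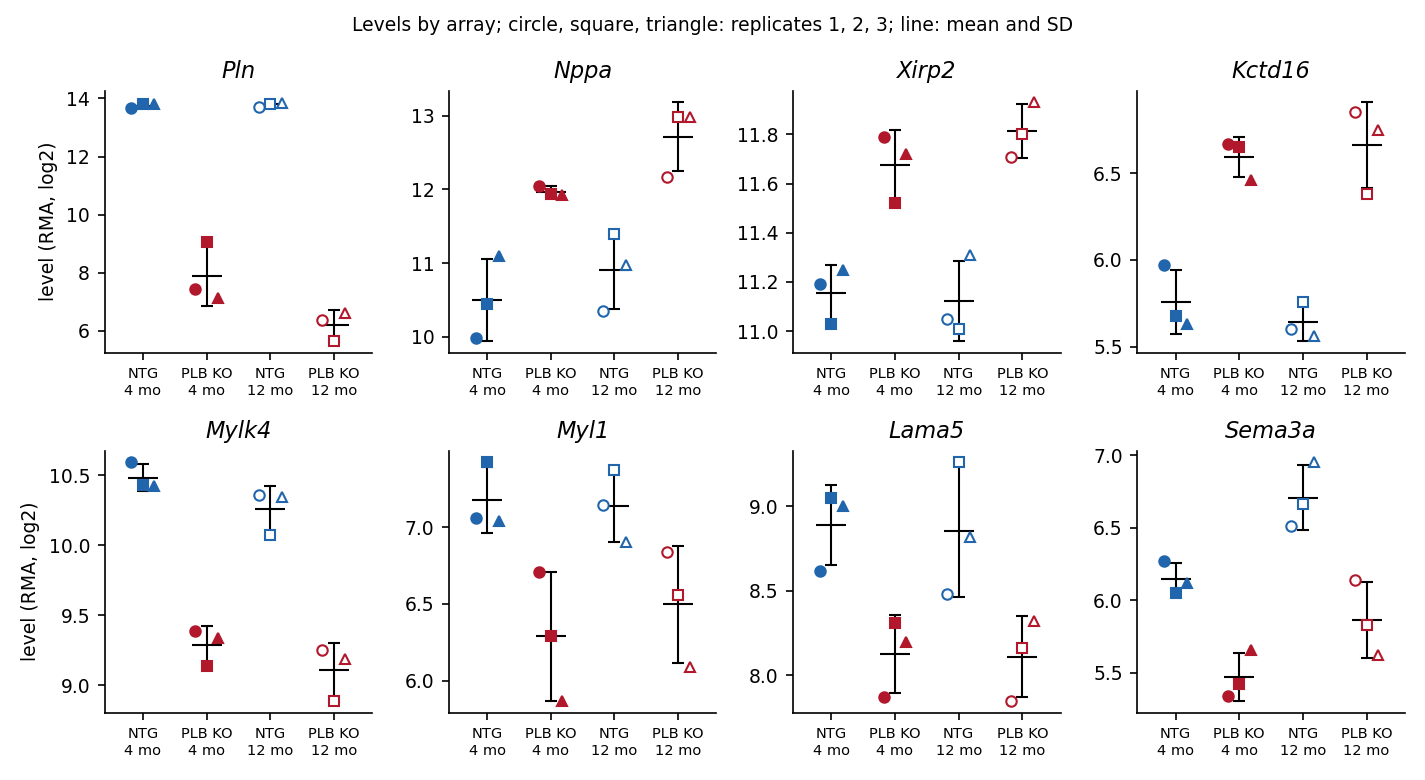
Log2 RMA levels (y axis) of Pln and 7 other genes on each NTG (blue) and PLB KO (red) array at 4 months (filled) and 12 months (open), with the mean and SD of 3 arrays. In each of the 8 panels the NTG and PLB KO points of an age do not overlap. All genes but Xirp2 were chosen by a rule that asked for this at 4 months, where it held for 7.25% of all tested genes. All but Myl1 were also named as called over both ages, which uses the 12 month arrays.

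Arrays of these 2 groups correlated with those of their own group at 0.9626 to 0.9879. The ventricular identity of the tissue was visible in both groups. Myh6, the main myosin heavy chain of the adult mouse ventricle, had group means of 13.21 in PLB KO and 13.19 in NTG, and Myl2, the ventricular regulatory light chain, 13.20 and 13.14. The arrays differed in Y-linked signal, however: Uty was between 7.85 and 8.22 on all 3 PLB KO arrays, whereas of the NTG arrays 1 (replicate 1) was high and 2 were low, over a range of 2.88 to 7.81. Xist ran the other way, from 4.13 to 4.64 in PLB KO and from 4.26 to 10.04 in NTG. At 12 months 0 of the 3 PLB KO arrays and 1 of the 3 NTG arrays were high for Uty. In the Tm180 background at 4 months this held for 0 of the 3 Tm180/PLB KO arrays and 1 of the 3 Tm180 arrays. Some lists are therefore also given with the Y-linked level as a covariate, with which 232 of the 15440 genes had an unadjusted p under 0.05, 105 higher and 127 lower.

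Beside Pln, no gene of the list for calcium handling in the sarcoplasmic reticulum was called, with or without the replicate block. Of 27 measured members of that list, 3 were lower at an unadjusted p under 0.05 (Pln, Hrc and Sln) and none was higher. Of all tested genes 1.56% were lower and 1.52% higher at that level. Without overlap between groups 4 members were lower, against 3.52% of all. The median log2 difference was -0.07 against -0.01 over all tested genes. At an unadjusted p under 0.05, 7 members were lower with the replicate block (588 of all genes) and 2 with the Y-linked covariate (127 of all genes). Without NTG replicate 2, 1 was lower at that level. In such bulk tissue, fewer cells of a type and less RNA per cell cannot be told apart. Atp2a2, the pump that phospholamban restrains, was at 13.48, 13.45 and 13.43 in PLB KO and 13.48, 13.51 and 13.41 in NTG. The ranges overlapped, and the log2 difference was -0.01 ± 0.076 (SE). The calcium buffer Casq2 differed by -0.02 ± 0.18 and the sodium-calcium exchanger Slc8a1 by -0.06 ± 0.143. Ryr2, the calcium release channel, was at 11.80, 11.79 and 11.87 in PLB KO and 12.05, 12.11 and 12.07 in NTG. Its groups did not overlap, yet its log2 difference of -0.26 ± 0.123 had an unadjusted p of 0.051. Hrc, a calcium-binding protein of the reticulum that can bind the pump, was at 10.62, 10.71 and 10.48 against 10.93, 11.18 and 10.73, also without overlap. The log2 difference of Hrc was -0.34 ± 0.138 (unadjusted p = 0.0219, limma adjusted p = 1). Sarcolipin, encoded by Sln, is a small relative of phospholamban that also restrains the pump. Sln is also on the list of atrial markers given below. Its level was 4.92, 4.67 and 4.71 in PLB KO and 5.33, 5.46 and 5.41 in NTG, near the dim cutoff, and its log2 difference was -0.63 ± 0.286 (unadjusted p = 0.0378). Myoregulin (Mrln), another peptide regulator of the pump, differed by -0.17 ± 0.196.

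The kinases, phosphatases and receptors that set phospholamban phosphorylation were tested as 34 genes. In this list 2 were higher and 4 lower at an unadjusted p under 0.05, against 1.52% and 1.56% of all tested genes. The median log2 difference was -0.01. The counts were 0 and 1 with the Y-linked covariate (105 and 127 of all genes). They were 0 and 0 with the immediate-early level as a covariate (224 and 204 of all genes) and 0 and 1 without NTG replicate 3. Without PLB KO replicate 3 they were 1 and 2 (166 and 199 of all genes). Without PLB KO replicate 1 they were 2 and 2 (208 and 219 of all genes). Akap5, an anchor of protein kinase A, was at 6.47, 6.14 and 5.73 in PLB KO and 6.39, 7.25 and 7.16 in NTG, where replicate 1 lay within the knockout range (log2 difference -0.82 ± 0.236, unadjusted p = 0.00231). Prkar2b, a regulatory subunit of protein kinase A, differed by -0.56 ± 0.195 with no overlap. Camk2g, a calcium-calmodulin kinase, differed by -0.28 ± 0.117. Pde4b, which degrades cyclic AMP, had a log2 difference of 0.61 ± 0.241. None of the 34 was called with or without the block. Among 19 genes of sarcolemmal calcium and sodium transport, Gem, a small GTPase that restrains the L-type calcium channel, alone had an unadjusted p under 0.05 (log2 difference 0.90 ± 0.413), and its control array of replicate 1, at 8.03, lay among the knockout arrays. Of 26 calcineurin and calcium-dependent signalling genes, 1 reached that level, the transcription factor Mef2a, which was lower without overlap (-0.30 ± 0.124, unadjusted p = 0.0272). With the Y-linked covariate 0 genes of either list had such a p.

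Genes of the fetal and hypertrophy list were higher on average. Of 19 tested members 8 were higher at an unadjusted p under 0.05, against 1.52% of all tested genes, and none was lower. This list and the others were chosen with earlier results of these data known, so such shares may be raised by the choice. With no overlap between groups 9 were higher, against 3.72% of all, and the median log2 difference was 0.37. Nppa, which encodes atrial natriuretic peptide, was at 12.05, 11.93 and 11.92 in PLB KO and 9.98, 10.44 and 11.09 in NTG. The knockout arrays were within a narrow band above all controls, and the controls were spread over more than 1 log2 unit. Its log2 difference was 1.46 ± 0.279, 2.76-fold (limma, adjusted p = 0.156). With the replicate block Nppa rose (limma, adjusted p = 0.0232). Xirp2, a Z-disc and intercalated disc protein of muscle, was at 11.79, 11.52 and 11.72 against 11.19, 11.03 and 11.25, again without overlap (0.52 ± 0.11, limma adjusted p = 0.261, and 0.0783 with the block).

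Mybpc2, the fast skeletal form of myosin-binding protein C, was at 8.42, 8.62 and 8.44 in PLB KO and 7.72, 7.91 and 7.80 in NTG (log2 difference 0.68 ± 0.193). Ankrd1, a stretch-responsive nuclear and sarcomeric protein, was at 13.09, 12.87 and 12.90 against 12.55, 12.45 and 12.71 (0.38 ± 0.115). Neither gene's groups overlapped. Nppb, the gene for brain natriuretic peptide, and Acta1, skeletal α-actin, differed by 0.57 ± 0.257 and 0.79 ± 0.339, with limma adjusted p-values of 1. With the Y-linked covariate 5 of the 19 had an unadjusted p under 0.05, and leaving out 1 of the 6 arrays at a time gave 5 to 7 (5 without PLB KO replicate 2 or NTG replicate 2). The list's median was 0.24 without NTG replicate 2, 0.26 with the Y-linked covariate and 0.16 with the immediate-early level as a covariate.

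Nppa is also an atrial gene, so the other atrial markers were set beside it. Of the 10 tested atrial markers 9 had a lower mean in PLB KO, and Nppa was the exception, while 48.2% of all tested genes had a higher mean. Myl7, the atrial regulatory light chain, was at 5.42, 5.09 and 4.65 in PLB KO and 4.93, 7.81 and 6.20 in NTG. Myl4, the atrial essential light chain, was at 6.96, 6.69 and 6.63 against 6.91, 8.41 and 7.75. For both, NTG replicate 1 lay within the knockout range and the other controls above it. At 12 months these markers stood the other way, with a log2 difference of 2.49 for Myl7 and 2.09 for Myl4. The atrial list mean, Nppa included, lay between 6.69 and 6.82 on the knockout arrays and between 6.56 and 7.36 on the control arrays. Its part in the results was not tested.

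Structural and metabolic genes are given next. Of 27 sarcomere and Z-disc genes 1 was higher at an unadjusted p under 0.05 (Csrp3, 0.25 ± 0.106) and 1 lower (Mylk4). Mylk4 encodes a myosin light chain kinase expressed in heart. It was at 9.39, 9.14 and 9.34 in PLB KO and 10.59, 10.43 and 10.42 in NTG, so the groups were separated by about the same distance in each replicate. Its log2 difference was -1.19 ± 0.229 (limma, adjusted p = 0.156). With the replicate block Mylk4 fell (limma, adjusted p = 0.00378). In the list of 21 cardiac ion channels 20 had a lower mean in PLB KO, with a median log2 difference of -0.25, and 1 had an unadjusted p under 0.05. That gene was Scn4b, an auxiliary subunit of the cardiac sodium channel, at 6.92, 6.79 and 7.14 in PLB KO and 7.60, 7.70 and 7.51 in NTG (-0.65 ± 0.213). With the replicate block 7 of the 21 were lower at an unadjusted p under 0.05, as were 588 of the 15440 genes, and with the Y-linked covariate the median was -0.11.

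The median log2 difference of 31 fatty acid oxidation genes was -0.15. At an unadjusted p under 0.05, 5 were lower (1.56% of all) and none higher. They were Slc27a1, a fatty acid transporter, Eci1, Acadvl and Ech1, enzymes of mitochondrial β-oxidation, and Cpt2, of the carnitine shuttle. Slc27a1 was at 8.87, 9.05 and 9.15 in PLB KO and 9.33, 9.77 and 9.59 in NTG (-0.54 ± 0.184). Eci1 was at 10.57, 10.47 and 10.43 against 10.80, 10.87 and 10.71 (-0.30 ± 0.108). For both genes the groups did not overlap. The count of lower members was 11 with the replicate block (588 of all genes, against 241 without it), 3 with the Y-linked covariate (127 of all genes) and 0 with the immediate-early level as a covariate (204 of all genes). The median of this list was -0.34 at 12 months and -0.07 in the Tm180 background. Fbp2, the muscle fructose bisphosphatase, was the only one of 19 glucose genes with an unadjusted p under 0.05 (-0.75 ± 0.262), and its PLB KO array of replicate 1, at 7.09, lay above NTG replicate 3, at 6.99. None of 41 oxidative phosphorylation genes reached that level in either direction, and their median was -0.06.

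**Figure D2:**
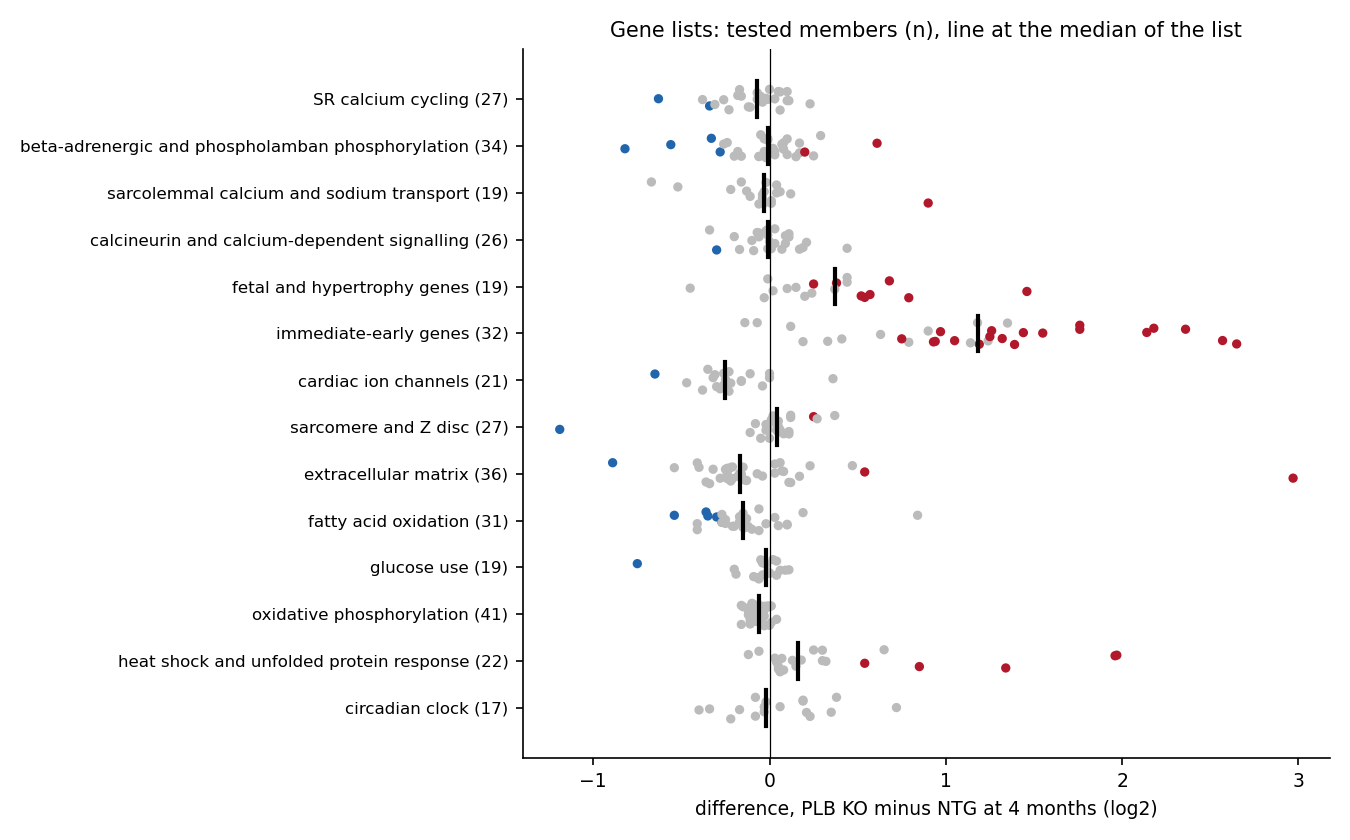
Log2 differences between PLB KO and NTG at 4 months (x axis) of the tested members of 14 gene lists (y axis, number tested in parentheses, Pln not drawn). Each point is a gene, red where higher and blue where lower at an unadjusted p under 0.05, and the black line is the list's median, which is 1.18 for the immediate-early genes and 0.37 for the fetal and hypertrophy genes.

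The immediate-early genes had the highest median of the lists, 1.18 on the log2 scale. Of 32 tested members 30 had a higher mean in PLB KO, against 48.2% of all tested genes. At an unadjusted p under 0.05, 19 were higher (1.52% of all), and 12 were higher with no overlap between groups (3.72% of all). None was called. The list mean was 8.13, 8.83 and 8.58 on the PLB KO arrays and 8.12, 7.0 and 6.90 on the NTG arrays. NTG replicate 1 was therefore at the level of PLB KO replicate 1, and the difference came from the other arrays. Fos, a subunit of the AP-1 transcription factor, was at 7.43, 8.94 and 8.47 in PLB KO and 7.46, 4.99 and 5.32 in NTG (2.36 ± 0.726, unadjusted p = 0.00393). The groups overlapped through NTG replicate 1. Ier2, a nuclear protein induced by growth factors, was at 7.44, 8.13 and 8.45 against 7.32, 6.13 and 6.25 (1.44 ± 0.48).

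Further genes are given by array. Dusp1, a phosphatase that switches off MAP kinases, was at 10.54, 11.59 and 11 in PLB KO and 10.44, 9.67 and 9.45 in NTG (1.19 ± 0.373). Ccn1, a secreted matricellular protein, was at 10.39, 10.99 and 9.97 against 9.38, 9.15 and 9.03 (1.26 ± 0.326, unadjusted p = 0.00093, limma adjusted p = 0.703). Ccn1 was lower on NTG replicate 1 than on any knockout array. Thbs1, the gene for thrombospondin 1 and a member of the extracellular matrix list, was at 11.76, 12.09 and 11.78 in PLB KO and 12.01, 7.24 and 7.47 in NTG, so that a log2 difference of 2.97 ± 1.36 rested on NTG replicates 2 and 3. With the immediate-early level as a covariate the differences of Thbs1 and Gem were -0.30 and -0.04.

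The immediate-early count depended on single arrays. Leaving out NTG replicate 1 raised it to 26, while the higher genes among all tested rose from 234 to 420. Leaving out NTG replicate 2 or NTG replicate 3 lowered it to 6. It was 8 when PLB KO replicate 2 was dropped (228 of all genes) and 13 when PLB KO replicate 3 was dropped (166 of all genes). With the Y-linked covariate it was 4 (105 of all genes), with a median of 0.59. The Y-linked signal was high on NTG replicate 1, the array whose immediate-early level was like that of the knockout, and its part in the result was not tested. In the Tm180 background at 4 months the list mean was 8.41, 8.70 and 8.55 on the Tm180/PLB KO arrays and 8.03, 7.18 and 7.06 on the Tm180 arrays. Uty was high on 0 of the 3 Tm180/PLB KO arrays and 1 of the 3 Tm180 arrays, and its part there was not tested either. In that background 17 of the 32 were higher at an unadjusted p under 0.05, against 2.01% of all genes, and the median log2 difference was 1.14. At 12 months 1 of the 32 was, with a median of 0.27. The list mean there was 7.21, 8.68 and 7.1 on the PLB KO arrays and 7.92, 6.95 and 7.15 on the NTG arrays. It was as high, at 8.69, on replicate 2 of the 12 month Tm180 group, which has no knockout. The list thus also varied widely between arrays of 1 genotype.

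**Figure D3:**
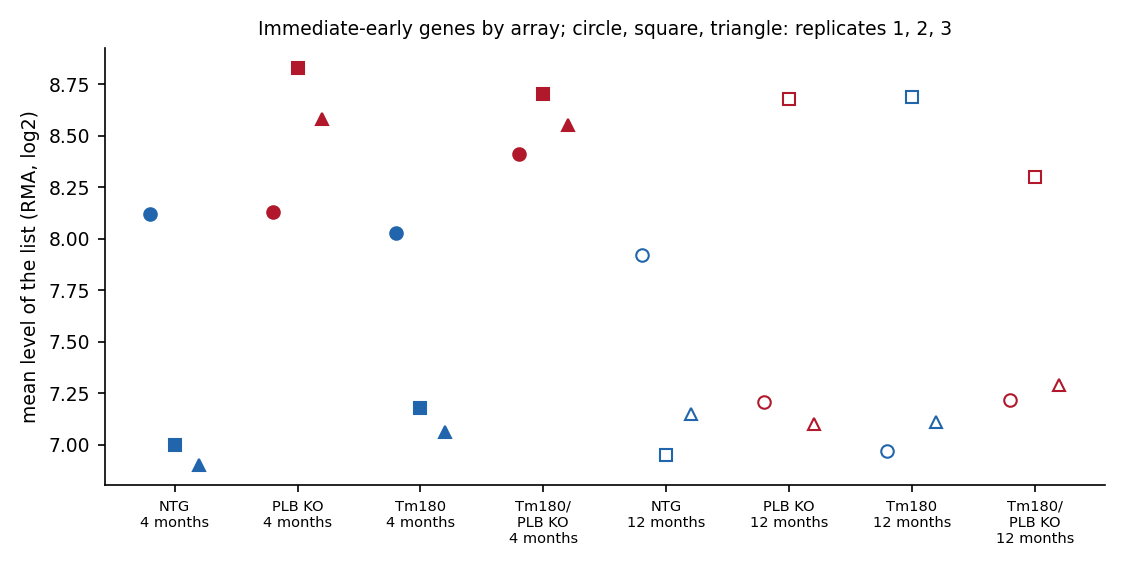
Mean log2 RMA level of the 32 immediate-early genes (y axis) on each of the 24 arrays, by group (x axis; red, PLB KO or Tm180/PLB KO; blue, NTG or Tm180; filled, 4 months; open, 12 months). At 4 months the 6 knockout arrays lie between 8.13 and 8.83, and the first replicates of NTG and Tm180, at 8.12 and 8.03, stand near them. At 12 months replicate 2 of PLB KO, Tm180 and Tm180/PLB KO lies at 8.68, 8.69 and 8.3, above the other arrays of its group.

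Promoter sequences of 4 genes, none of them called at 4 months, are shown for the binding motifs of factors that switch on immediate-early genes. Windows from RefSeq (GRCm38.p6), 250 bases before to 50 after each start, were matched for 25 of the 32 immediate-early genes and searched on both strands for the cyclic AMP response element TGACGTCA, for the AP-1 site TGANTCA and for the CArG box bound by serum response factor. A cyclic AMP response element cannot at the same letters be an AP-1 site as spelled here. The printed sequences are the 250 bases before the start, 5′ to 3′ on the gene's strand, with the motif in capitals. Btg2 and Dusp1 carry the cyclic AMP response element, Zfp36 the CArG box and Xirp2 the AP-1 site. Btg2 (chr1:134079156-134079405, minus strand), Dusp1 (chr17:26508473-26508722, minus strand), Zfp36 (chr7:28379229-28379478, minus strand) and Xirp2 (chr2:67445752-67446001, plus strand) read as follows.
Btg2: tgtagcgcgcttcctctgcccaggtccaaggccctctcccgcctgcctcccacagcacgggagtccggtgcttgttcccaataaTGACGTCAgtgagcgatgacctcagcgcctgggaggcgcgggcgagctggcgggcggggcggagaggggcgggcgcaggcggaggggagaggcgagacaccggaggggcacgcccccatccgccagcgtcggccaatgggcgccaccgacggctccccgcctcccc
Dusp1: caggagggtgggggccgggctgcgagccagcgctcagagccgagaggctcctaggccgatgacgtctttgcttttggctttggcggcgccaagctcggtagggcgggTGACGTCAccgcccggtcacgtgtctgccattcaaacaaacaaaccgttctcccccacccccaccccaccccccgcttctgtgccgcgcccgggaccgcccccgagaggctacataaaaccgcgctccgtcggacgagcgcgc
Zfp36: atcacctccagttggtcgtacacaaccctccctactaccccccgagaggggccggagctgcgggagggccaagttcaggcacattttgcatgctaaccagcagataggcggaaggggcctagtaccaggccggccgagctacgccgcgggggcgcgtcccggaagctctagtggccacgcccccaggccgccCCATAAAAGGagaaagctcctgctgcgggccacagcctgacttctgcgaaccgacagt
Xirp2: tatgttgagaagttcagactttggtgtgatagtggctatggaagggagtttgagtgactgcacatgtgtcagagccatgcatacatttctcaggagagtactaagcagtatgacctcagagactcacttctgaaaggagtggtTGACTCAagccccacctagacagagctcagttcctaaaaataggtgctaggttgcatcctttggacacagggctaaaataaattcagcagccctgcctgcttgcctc

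Of 31 windows of the immediate-early genes 3 held the cyclic AMP response element (9.68%), against 1.79% of all 32851 windows and 2.71% of those of tested genes. The CArG box was in 5 windows of 2 genes, Egr2 and Zfp36 (16.1%, against 1.63% of all windows and 1.3% of those of tested genes). Several windows of Egr2 overlap and hold the same site, which raises that share. By gene it was 2 of 25, against 185 of 12113 tested genes. The AP-1 site was in 0 of 31 windows (7.81% of all, 5.68% of those of tested genes). Btg2, an antiproliferative protein, was at 9.04, 10.17 and 9.52 in PLB KO and 9.13, 7.26 and 7.06 in NTG. Zfp36, which destabilises inflammatory messages, was at 9.26, 9.54 and 9.98 against 9.37, 7.14 and 7.01. In both, NTG replicate 1 overlapped the knockout arrays. Among 40 genes that were higher at an unadjusted p under 0.01 with no overlap, 36 windows of 30 genes were found, and the AP-1 site was in 13.9% of them: the windows of Xirp2, Klhl40, Efemp1, Rtn4 and Rorb. In the 49 windows of the 47 genes lower by the same rule, Pln not counted, the AP-1 site was in 4.08%, and the other motifs were in 0. These matches are descriptions of letters.

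Of 22 heat shock and unfolded protein genes 5 were higher at an unadjusted p under 0.05, against 1.52% of all tested genes. Without overlap 8 were higher, against 3.72%. The choice of this list was also made with earlier results of these data known. Hspa1a, the inducible heat shock protein, was at 9.51, 8.65 and 8.19 in PLB KO and 7.09, 6.64 and 6.70 in NTG (1.97 ± 0.837, unadjusted p = 0.0284). Its partner Dnajb1 was at 9.90, 9.14 and 8.48 against 7.64, 7.03 and 6.95. Replicate 1 was highest in both groups. Hspa1l, of the same family, differed by 0.54 ± 0.149 (unadjusted p = 0.00155). The count was 8 with the replicate block (521 of all genes, against 234 without it) and 1 with the Y-linked covariate (105 of all genes). It was also 1 without PLB KO replicate 1 (208 of all genes), NTG replicate 2 or NTG replicate 3. With the immediate-early level as a covariate, 1 was higher and 5 were lower, and the list's median turned from 0.16 to -0.18. Of 36 extracellular matrix genes 2 were higher and 1 lower at an unadjusted p under 0.05, with a median of -0.17. Without NTG replicate 1 it was 2 and 6 with a median of -0.28, and without PLB KO replicate 1 it was 1 and 0 with a median of -0.05. It was 0 and 2 without PLB KO replicate 2. Without PLB KO replicate 3, NTG replicate 2 or NTG replicate 3, and with either covariate, 0 genes had such a p, and the median was -0.04 without NTG replicate 3.

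Markers of other cell types gave small differences with few p-values under 0.05. Of 10 fibroblast markers 9 had a lower mean in PLB KO with a median log2 difference of -0.34, and the list mean was 8.90 to 9.14 on the knockout arrays and 8.86 to 9.67 on the controls, where replicate 1 was lowest. Of 7 tested neutrophil markers 6 had a higher mean. At an unadjusted p under 0.05, 2 were higher (1.52% of all), and 0 with the Y-linked covariate. The list means were 5.25 to 5.68 against 4.74 to 5.31, near the dim cutoff of 4.83. With the dim filter at the 50th percentile 2 of the markers were left, 0 of them with such a p. Of 10 epicardium and mesothelium markers 9 had a higher mean, 1 of them with such a p, and the median was 0.26. With array weights 8 had such a p (1113 of all genes). Of 10 macrophage markers 5 had a higher mean, with list means of 7.5 to 7.62 against 7.12 to 7.90. The part of these cells in the results was not tested.

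The genes with the largest separated differences are given next, chosen as the 12 highest and 12 lowest with an unadjusted p under 0.01 and no overlap between groups. The higher ones were Nppa, Ier2, H3c15, Ccn1, Dusp1, Ier5, Efemp1, H3c4, H2bc18, Hsd11b1, Kctd16 and Plk3. Kctd16, which associates with GABA-B receptors, was at 6.67, 6.65 and 6.46 in PLB KO and 5.97, 5.68 and 5.63 in NTG, with a log2 difference of 0.84 ± 0.149. Its limma adjusted p was 0.117, the lowest after that of Pln, and 0.00833 with the replicate block. Of the 12, 3 are histone genes of the replication-dependent kind: H3c15 was at 5.45, 5.73 and 5.10 against 3.98, 4.07 and 4.27 (1.32 ± 0.441, with all 3 NTG values below the dim cutoff, so that the size is uncertain), H3c4 differed by 1.03 ± 0.331 and H2bc18 by 0.92 ± 0.286. The array method may not separate near-identical histone copies, so these are uncertain as single genes. Efemp1, an extracellular matrix glycoprotein, was at 7.55, 7.19 and 7.54 against 6.45, 6.22 and 6.47 (1.05 ± 0.315). Hsd11b1, which regenerates active glucocorticoid, was at 7.06, 6.68 and 6.74 against 6.21, 5.66 and 5.86 (0.91 ± 0.254).

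The lower genes were Pln, Mylk4, Stard6, Myl1, Sfrp2, Adamts6, Lama5, Igsf10, Abracl, Sema3a, Scn4b and Pamr1. Myl1, the essential light chain of fast skeletal muscle, was at 6.71, 6.29 and 5.87 in PLB KO and 7.06, 7.42 and 7.04 in NTG (-0.88 ± 0.246, limma adjusted p = 0.983, and 0.0134 with the block). Lama5, a basement membrane laminin chain, was at 7.87, 8.31 and 8.20 against 8.62, 9.05 and 9.0 (-0.76 ± 0.195). Its adjusted p went from 0.691 to 0.00378 with the block in limma. In both groups replicate 1 was the lowest. Sema3a, a secreted guidance cue that also restrains cardiac sympathetic innervation, was at 5.34, 5.42 and 5.66 against 6.27, 6.05 and 6.12 (-0.67 ± 0.141, limma adjusted p = 0.261). Abracl was at 7.0, 6.91 and 6.86 against 7.74, 7.90 and 7.30 (-0.72 ± 0.159). Stard6, a lipid transfer protein, was at 4.02, 4.16 and 4.40 in PLB KO, below the dim cutoff, and at 4.87, 5.2 and 5.43 in NTG. Against NTG replicate 1 alone, the difference of the PLB KO mean was at least as large as that against all 3 controls for 5 of these 23 genes other than Pln. Its sign was fixed by the choice of genes.

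**Figure D4:**
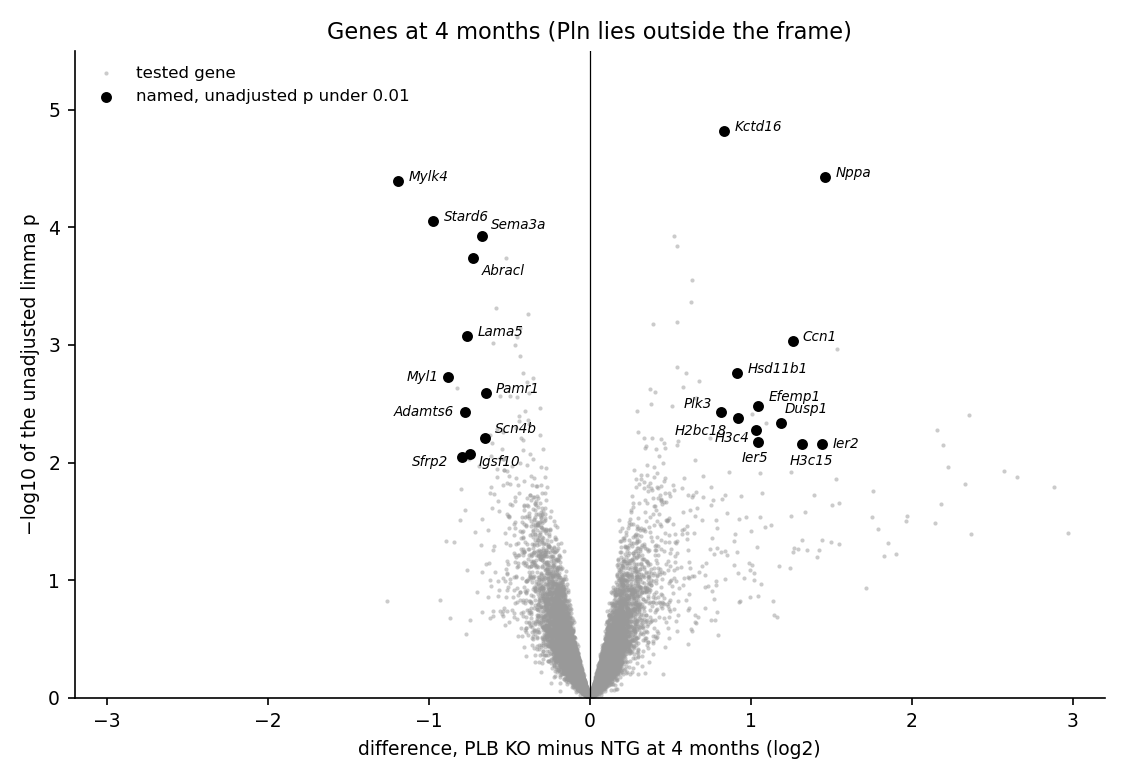
Log2 difference between PLB KO and NTG at 4 months (x axis) and −log10 of the unadjusted limma p (y axis) for each tested gene (grey), with the 23 named genes other than Pln in black. Pln, at -5.86, lies outside the frame, and Kctd16 has the highest point shown.

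The genes that flank Pln on its chromosome were examined, since a targeted allele can carry sequence of another strain around it. Of the 20 nearest genes, 10 on each side, 18 were tested and none was called, with log2 differences from -0.42 to 0.33. Fam184a (-0.35, unadjusted p = 0.0196) was the only one with an unadjusted p under 0.05. Slc35f1 followed (-0.42, unadjusted p = 0.0548). The groups did not overlap for Vgll2, Slc35f1 and Msl3l2, which were lower, and Cep85l, which was higher. Of all tested genes 7.25% did not overlap. Slc35f1 differed by -0.44 at 12 months and 0.02 in the Tm180 background, and Vgll2 by -0.34 at 4 months, 0.46 at 12 months and -0.58 in the Tm180 background. Cep85l, whose gene overlaps Pln, differed by 0.11 ± 0.195. Gja1, the gap junction protein connexin 43, which lies among these neighbours, differed by -0.16 ± 0.14.

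The genes chosen at 4 months were then followed in the other comparisons, whose arrays entered the choice through the pooled estimate of the spread and not through the means. There limma called 12 genes between PLB KO and NTG at 12 months (0.0777%, and 48 or 0.311% with the block) and 3 between Tm180/PLB KO and Tm180 at 4 months (0.0194%, and 15 or 0.0972% with the block). Of the 40 genes higher by the rule above (0.259% of all tested), 36 (90.0%) were also higher in PLB KO than NTG at 12 months, and 18 (45%) were so at an unadjusted p under 0.05, against 1.95% of all genes. Of all genes higher at 4 months, 62.6% were higher at 12 months. Of the 47 lower ones other than Pln (48 with Pln, 0.311%), 33 (70.2%) were lower at 12 months and 17 (36.2%) with an unadjusted p under 0.05, against 1.56%, and 48.4% of all genes lower at 4 months were lower at 12 months. Between Tm180/PLB KO and Tm180 mice at 4 months, 31 of the 40 (77.5%) were higher, 13 (32.5%) with an unadjusted p under 0.05, against 2.01% of all genes. There 43 of the 47 (91.5%) were lower, 14 (29.8%) with such a p, against 1.90%. Of all genes, 57.8% of those higher and 65.1% of those lower at 4 months had the same direction in the Tm180 background. The median differences were smaller than at 4 months: 0.25 and -0.14 at 12 months and 0.19 and -0.20 in the Tm180 background, against 0.56 and -0.50 in the comparison that chose the genes.

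These shares moved with the choice. Chosen in a fit to the 6 arrays alone, which uses no other array, 72 genes were higher and 44 lower. Of these, 14 of the higher (19.4%) and 20 of the lower (45.5%) had the same direction with an unadjusted p under 0.05 at 12 months, and 21 (29.2%) and 9 (20.5%) in the Tm180 background. With the replicate block the shares were 33.7% and 30.9% at 12 months and 23.3% and 16.5% in the Tm180 background. With array weights they were 20.1% and 28.6%, and 22.2% and 14.6%. Without NTG replicate 1, 116 genes were chosen as higher, of which 17 (14.7%) were also higher at 12 months with an unadjusted p under 0.05 and 56 (48.3%) in the Tm180 background. With the Y-linked covariate 19 were chosen as higher, of which 15 (78.9%) were also higher at 12 months at that level and 7 (36.8%) in the Tm180 background. Without NTG replicate 2, 21 genes were chosen as higher, and the shares were 66.7% and 33.3%. Leaving out each of the 6 arrays in turn, the share with such a p among the lower genes ran from 16.4% to 41.7% at 12 months and from 14.1% to 26.2% in the Tm180 background, both lowest without NTG replicate 1. Among the higher genes it ran from 23.7% (without NTG replicate 3) to 48.3% in the Tm180 background.

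Among these 88 genes, Pln included, 10 other than Pln had the same direction with an unadjusted p under 0.05 in all 3 comparisons. Among all 475 genes with such a p at 4 months, 19 did, Pln included. The means of the 3 comparisons share no array, but their p-values use the same pooled estimate of the spread and are not independent. The 10 are named after their values were seen. Higher were Ccn1, Mybpc2, Abcb4, Gramd1b, Clu and Abat, and lower were Myl1, Adamts6, Sema3a and Tlcd3b. Mybpc2 differed by 0.68 at 4 months, 0.88 at 12 months and 0.57 in the Tm180 background. Abcb4, a phospholipid transporter, differed by 0.64, 0.56 and 0.40 in that order, and Clu, the extracellular chaperone clusterin, by 0.54, 0.48 and 0.32. Among the lower genes Myl1 differed by -0.88, -0.64 and -0.93, and Sema3a by -0.67, -0.84 and -0.53. The fast skeletal muscle genes in this group thus stood apart from each other, with Mybpc2 higher and Myl1 lower in every comparison.

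**Figure D5:**
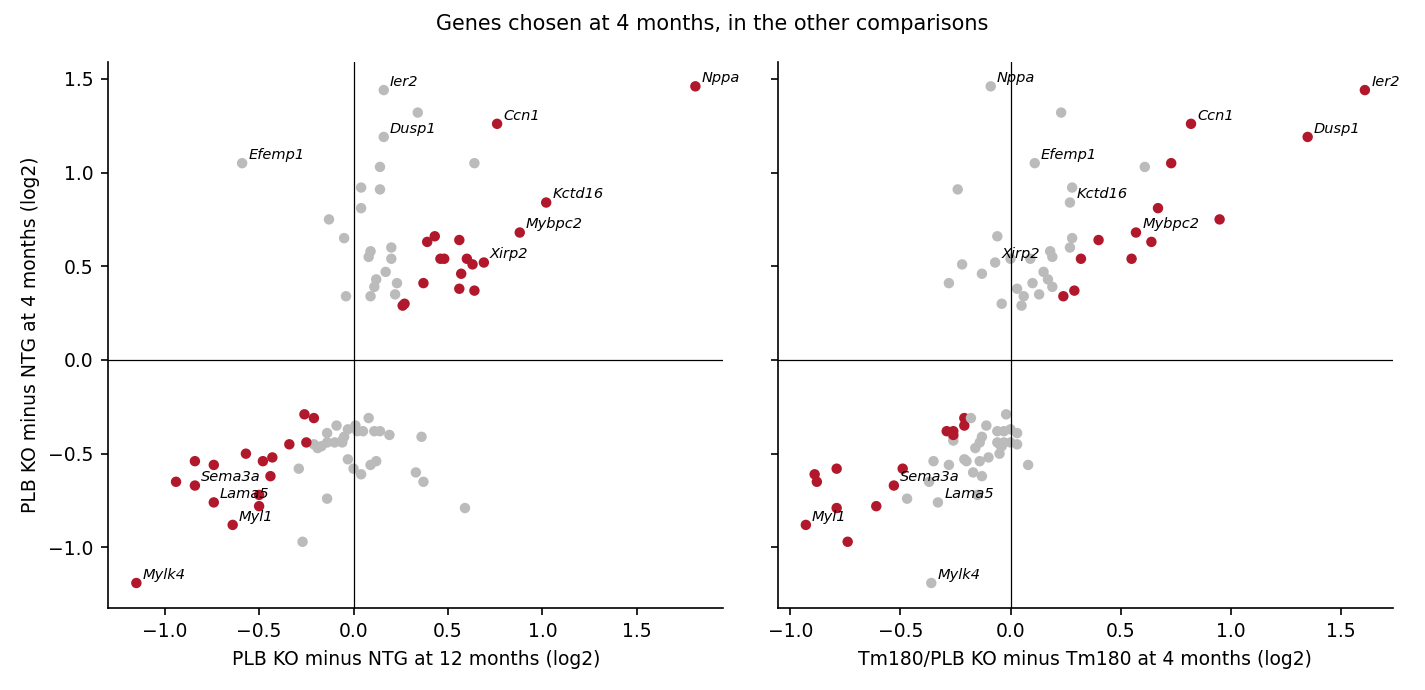
Log2 difference at 4 months (y axis) of 87 genes chosen there, against the log2 difference between PLB KO and NTG at 12 months (left, x axis) and between Tm180/PLB KO and Tm180 at 4 months (right, x axis). Red points have the same direction at an unadjusted p under 0.05; Nppa lies at 1.81 on the left and at -0.09 on the right.

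The fetal genes that were higher at 4 months were set beside the other comparisons. Nppa had a log2 difference of 1.81 at 12 months and -0.09 in the Tm180 background, where its mean was 12.84 in Tm180/PLB KO and 12.93 in Tm180, above the PLB KO mean of 11.96 at 4 months. Xirp2 differed by 0.69 and -0.07, with means of 11.88 and 11.95 in the Tm180 background. Ankrd1 differed by 0.56 and 0.03. The list's median was 0.42 at 12 months and -0.02 in the Tm180 background. Of the 10 atrial markers, Nppa among them, 5 were higher at 12 months at an unadjusted p under 0.05, against 1.95% of all genes. Their median log2 difference there was 0.68, and the part of atrial tissue in the 12 month value of Nppa was not tested. For the difference between backgrounds, Nppa gave -1.55 ± 0.395 (unadjusted p = 0.000801) and Xirp2 -0.59 ± 0.156 (unadjusted p = 0.00113). Both had a limma adjusted p of 1, and 0 genes were called for that difference, with 183 at an unadjusted p under 0.05 (0 also with the block). Mylk4 likewise differed by -1.15 at 12 months and -0.36 in the Tm180 background, where its mean was 8.43 in Tm180/PLB KO and 8.79 in Tm180.

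Of the 24 genes given by size, 3 had the opposite sign at 12 months. Efemp1 had log2 differences of 1.05 at 4 months and -0.59 at 12 months, Sfrp2, a secreted Wnt regulator, -0.79 and 0.59, and Pamr1 -0.65 and 0.37. The age differences of these genes were -1.64 ± 0.446, 1.39 ± 0.389 and 1.02 ± 0.267, with unadjusted p-values of 0.00144, 0.00187 and 0.00102. The limma test of the age difference called 0 genes, with or without the block, and gave 262 genes with an unadjusted p under 0.05. For Pln itself the age difference was -1.71 ± 0.458 (unadjusted p = 0.00128, limma adjusted p = 1).

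Averaging both ages, which uses the 4 month arrays again and is no separate evidence, 27 genes were called (0.175%; limma, adjusted p under 0.05), 12 higher and 15 lower. With the replicate block 120 were (0.777%). Nppa rose by 1.64 ± 0.198 (limma, adjusted p = 0.000293), Kctd16 by 0.93 ± 0.105, Mybpc2 by 0.78 ± 0.136, Xirp2 by 0.61 ± 0.078, Abcb4 by 0.60 ± 0.103, Gnao1 by 0.57 ± 0.109, Hspa1l by 0.57 ± 0.106 and Clu by 0.51 ± 0.0957. Besides Pln, the lower genes by size were Mylk4, which differed by -1.17 ± 0.162, Fbp2 by -0.96 ± 0.186, Slc41a3, a magnesium transporter of mitochondria, by -0.86 ± 0.151, Scn4b by -0.80 ± 0.151, Sema3a by -0.76 ± 0.0996, Lama5 by -0.75 ± 0.138 and Acsm5, an enzyme that activates medium-chain fatty acids, by -0.71 ± 0.134. The count was 11 with the immediate-early level as a covariate, and 8 to 32 when 1 array was left out.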

How the data were processed

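The values were Affymetrix array levels of left ventricular RNA. Per the submitters' processing notes, the authors deposited log2 values made with RMA, and neither its version nor the build behind the probe sets was given in those notes. Gene names came from the platform annotation: 21789 of 35557 had 1 symbol, and 21698 of these matched RefSeq (GRCm38.p6). For 999 of 19938 genes the brightest of several probe sets was used. Genes above 4.83, the 25th percentile, on at least 3 arrays were kept (15918), and 473 X-linked and 5 Y-linked genes were set aside.

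limma 3.58.1 in R 4.3.3 fitted 8 group means to 24 arrays (16 residual degrees of freedom), with Benjamini-Hochberg adjustment over 15440 genes and a call at an adjusted p under 0.05. The fit was tested on simulated data with independent noise on each array. That simulation held no shared deviation of same-numbered arrays, so it cannot speak to the effect of the replicate number. Arrays have no read depth, so their number limits the precision. Nothing in the labels says how replicates were collected beyond the word biological, so p-values measure the spread between these arrays.

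Replicate numbers come from the titles, and the letter of a code in the descriptions goes with them. For PLB KO against NTG at 4 months the deviations of same-numbered arrays correlated at 0.39 to 0.598, all 3 above 0.1, and those of other pairs at 0.037 or less. The pairing was less regular at 12 months. There same-numbered arrays correlated at -0.104 (replicate 2) to 0.67, 2 of 3 above 0.1, and other pairs reached 0.331. Over both ages 16 of 18 were above 0.1, and other pairs reached 0.438. The number of that code goes with the group, so its effect and that of genotype cannot be told apart.

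Named genes were Pln, Atp2a2, Sln, Ryr2, Casq2, Slc8a1, called genes, the 12 highest and 12 lowest separated genes with an unadjusted p under 0.01 (predicted, clone-named and small RNA genes left out), up to 4 members per list, the neighbours of Pln, and the 8 highest and 8 lowest called over both ages. Others, such as Nppb, Acta1, Myl7, Myl4, Btg2, Zfp36, Dnajb1 and Gramd1b, were named after their values were seen. The members and lists were chosen with earlier results of these data known. Alternatives are in the closing section.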

Additional observations from a re-analysis of the deposited data

How the results depend on the processing

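The fall of Pln at 4 months was called under every alternative run. Of the 24 other genes given by size or as Gramd1b, called with the block, 0 changed direction in 406 recomputed values. This was largely fixed in advance. The groups of these genes do not overlap, so leaving out or weighting arrays could not change the sign. The other alternatives, apart from the covariates and the centring, leave the difference of group means as it was. Over all 103 named genes 48 of 1730 recomputed values, in 25 genes that were not called, had the other sign. With the replicate block as the pairing, 10 genes were called at 4 months, 48 at 12 months, 15 in the Tm180 background and 120 over both ages. With array weights the counts were 236 at 4 months, 7 in the Tm180 background and 124 over both ages. The weights rested on few arrays, with 4.35 for NTG replicate 2 and 2.75 for PLB KO replicate 2 at 4 months. With only the arrays compared they were 1 at 12 months, 20 in the Tm180 background and 9 over both ages. With the Y-linked covariate the Tm180 background gave 6. With the immediate-early covariate the age difference gave 1 and both ages gave 11. Leaving out 1 array at a time gave 1 to 2 at 4 months (2 without NTG replicate 3), 2 to 16 at 12 months, 1 to 4 in the Tm180 background, 0 to 1 for the background difference (1 without Tm180 replicate 1) and 8 to 32 over both ages. At 12 months the lowest count, 2, was without PLB KO replicate 2, and over both ages the lowest, 8, was without NTG 12 months replicate 2. The counts over gene lists and over the genes followed in the other comparisons were recomputed under the same alternatives, a choice made after seeing the data. The cause of each change was not tested. No array is deeper than another, and signals near the dim cutoff, such as those of Sln and Stard6, are the least precise in scale.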
